A study of Mus musculus with 24 samples.

Results

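The transcripts described here code for the enzymes of glycolysis and for the carrier through which glucose enters most cells. The members were 10 genes named for their place in this route, and the rows of the intensity table were taken whose gene symbol is *Eno1*, *Ldha*, *Pgk1*, *Aldoa*, *Gpi1*, *Pfkp*, *Slc2a1*, *Pdk1*, *Hk1* or *Hk2*. Of the 17951 rows, 8 carried such a symbol. *Hk2* and *Gpi1* had no row and were not analysed here. All 8 rows passed the filter on detection, which asked 3 or more of the 24 arrays for a detection p below 0.01, as did 10371 rows of the whole table. No measured value enters the rule that picks the rows, but the members were chosen with earlier results of these data known.

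Glycolysis breaks glucose down to pyruvate in the cytosol and yields ATP without oxygen. Glucose crosses the cell membrane by facilitated carriers, is trapped by phosphorylation, is split into 3-carbon sugars and is then oxidised step by step. Lactate dehydrogenase turns the pyruvate into lactate, and pyruvate dehydrogenase, which pyruvate dehydrogenase kinases switch off, passes it to the mitochondria. Many genes of this route are induced in low oxygen by hypoxia-inducible factors. In the developing kidney, nephron progenitors are known to rely largely on glycolysis, whereas mature proximal tubules oxidise fatty acids and make glucose.

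Whole kidneys of E18.5 mouse embryos were measured on bead arrays in 8 groups of 3. *Wt1* co/co kidneys were homozygous for a conditional *Wt1* allele and carried no Cre. *Nes*-Cre *Wt1* co/co kidneys also carried a *Nes*-Cre transgene, active in the kidney mesenchyme. Wild-type kidneys had neither the conditional allele nor Cre, and *Nes*-Cre kidneys had the transgene with wild-type *Wt1*. *Wnt4*+/CreGFP kidneys had CreGFP knocked into 1 *Wnt4* allele, and *Wnt4*+/CreGFP *Wt1* co/co kidneys were in addition homozygous for the conditional allele. *Pax8*+/Cre and *Pax8*+/Cre *Wt1* co/co kidneys were made in the same way with Cre in 1 *Pax8* allele. Both knock-in drivers therefore left mutants and controls alike with 1 intact copy of *Wnt4* or *Pax8*. By the study's account, *Nes*-Cre worked incompletely and spared the ureteric bud, *Wnt4*+/CreGFP acted from the pretubular aggregates on, and *Pax8*+/Cre acted in the condensing mesenchyme, the nephrons and also the ureteric bud. The labels gave the strain as C57BL/6 and the methods a mixed background. The mutants are named in what follows by their driver, and where 3 values are given for them the order is *Nes*-Cre, *Wnt4*+/CreGFP, *Pax8*+/Cre. *Wt1* itself was not analysed here, and the recombination was not checked.

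The arrays formed 4 sets of 6, as the authors' ratio values show, which in each set were taken against the median of 3 control arrays. Set 1 held *Wt1* co/co and *Nes*-Cre *Wt1* co/co, set 2 wild type and *Nes*-Cre, set 3 the *Wnt4*+/CreGFP groups and set 4 the *Pax8*+/Cre groups. Each mutant was compared with the control of its own set, so that shifts between sets cancel. These controls differ in kind. The control of the *Nes*-Cre mutant had the conditional allele without Cre, and those of the other mutants had Cre without the allele. The background intensity was 152 to 181 in set 2 and 48.1 to 69.9 in the other sets, and 7458 to 9681 genes were detected per array. *Nes*-Cre *Wt1* co/co replicate 1 stood apart, with a median correlation of 0.910 with the other arrays of its group against 0.951 and 0.952 for the other arrays. Its summed linear level of 10 kidney identity genes was 1385, against 12349 and 11348 on the others of the group and 11671 to 16876 in the other groups. Its cap mesenchyme markers summed to 1593, against 5588 and 4886 in the group. Those of ureteric bud and collecting duct were not low, at 11664 against 8521 and 8697. Stromal markers summed to 29487 on it, against 14034 and 15864, and proximal tubule markers to 5908, against 10789 and 16020. The methods left out 1 array of this group without saying which, so all 3 were used. Values without replicate 1 are given for calls and some changes of the members and for part of the correlations. Changes of other genes, marker counts and comparisons across sets keep this array, and its part in them was not tested. Whole-kidney marker genes of the nephron were present in the controls: 10 to 12 of 14 proximal tubule markers were detected in all 3 arrays of every control group.

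The stretches before the start sites of 4 members are shown because *Slc2a1*, *Ldha* and *Pdk1* varied together among kidneys of the same genotype and *Eno1* was the member that changed between genotypes. This choice was made from the same data. Each is the 250 bases before the first start that RefSeq lists on GRCm38.p6, all on the + strand, at chr4:119108495-119108744 for *Slc2a1*, chr7:46845554-46845803 for *Ldha*, chr2:71872974-71873223 for *Pdk1* and chr4:150236458-150236707 for *Eno1*. Capitals mark ACGTG or GCGTG on either strand, the core to which hypoxia-inducible factors bind.
Slc2a1: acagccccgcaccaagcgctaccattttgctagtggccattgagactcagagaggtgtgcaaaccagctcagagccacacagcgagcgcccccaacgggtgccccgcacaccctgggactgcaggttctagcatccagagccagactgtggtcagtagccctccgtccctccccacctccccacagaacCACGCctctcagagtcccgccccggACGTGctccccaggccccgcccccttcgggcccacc
Ldha: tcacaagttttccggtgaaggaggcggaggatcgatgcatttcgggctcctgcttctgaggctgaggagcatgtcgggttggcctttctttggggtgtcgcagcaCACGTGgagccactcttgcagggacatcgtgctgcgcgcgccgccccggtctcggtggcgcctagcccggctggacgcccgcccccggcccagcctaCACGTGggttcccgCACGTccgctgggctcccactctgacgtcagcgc
Pdk1: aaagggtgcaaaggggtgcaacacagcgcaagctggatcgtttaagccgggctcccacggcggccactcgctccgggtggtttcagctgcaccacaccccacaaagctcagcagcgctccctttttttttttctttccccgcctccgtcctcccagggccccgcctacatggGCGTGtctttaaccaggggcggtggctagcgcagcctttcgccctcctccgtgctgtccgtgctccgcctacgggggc
Eno1: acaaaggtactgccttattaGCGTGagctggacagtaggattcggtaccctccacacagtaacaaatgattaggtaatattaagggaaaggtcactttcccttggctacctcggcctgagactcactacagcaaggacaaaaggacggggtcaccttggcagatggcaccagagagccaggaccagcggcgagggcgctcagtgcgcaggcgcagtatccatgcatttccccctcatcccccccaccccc
*Slc2a1* held 1 match to ACGTG and 1 to GCGTG. *Ldha* held ACGTG 5 times over both strands, at 3 places, and 2 of these places were the palindrome CACGTG, which the 2 strands share and which is also the E-box of other factors. *Pdk1* and *Eno1* each held 1 match to GCGTG. All 10 members were matched to a RefSeq promoter, and 7 of them held either motif in this window. *Hk1*, *Gpi1* and *Aldoa* held neither, and *Pgk1*, which is not shown, held 2 matches to ACGTG. RefSeq lists 2 starts for *Ldha*, 2 for *Pdk1* and 3 for *Eno1*, and only the first was read. Among 27018 promoters of the same length, 16.57% held ACGTG, 28.22% GCGTG and 38.6% at least 1 of the motifs. A match describes the letters only and is not a binding site shown here.

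**Figure D1:**
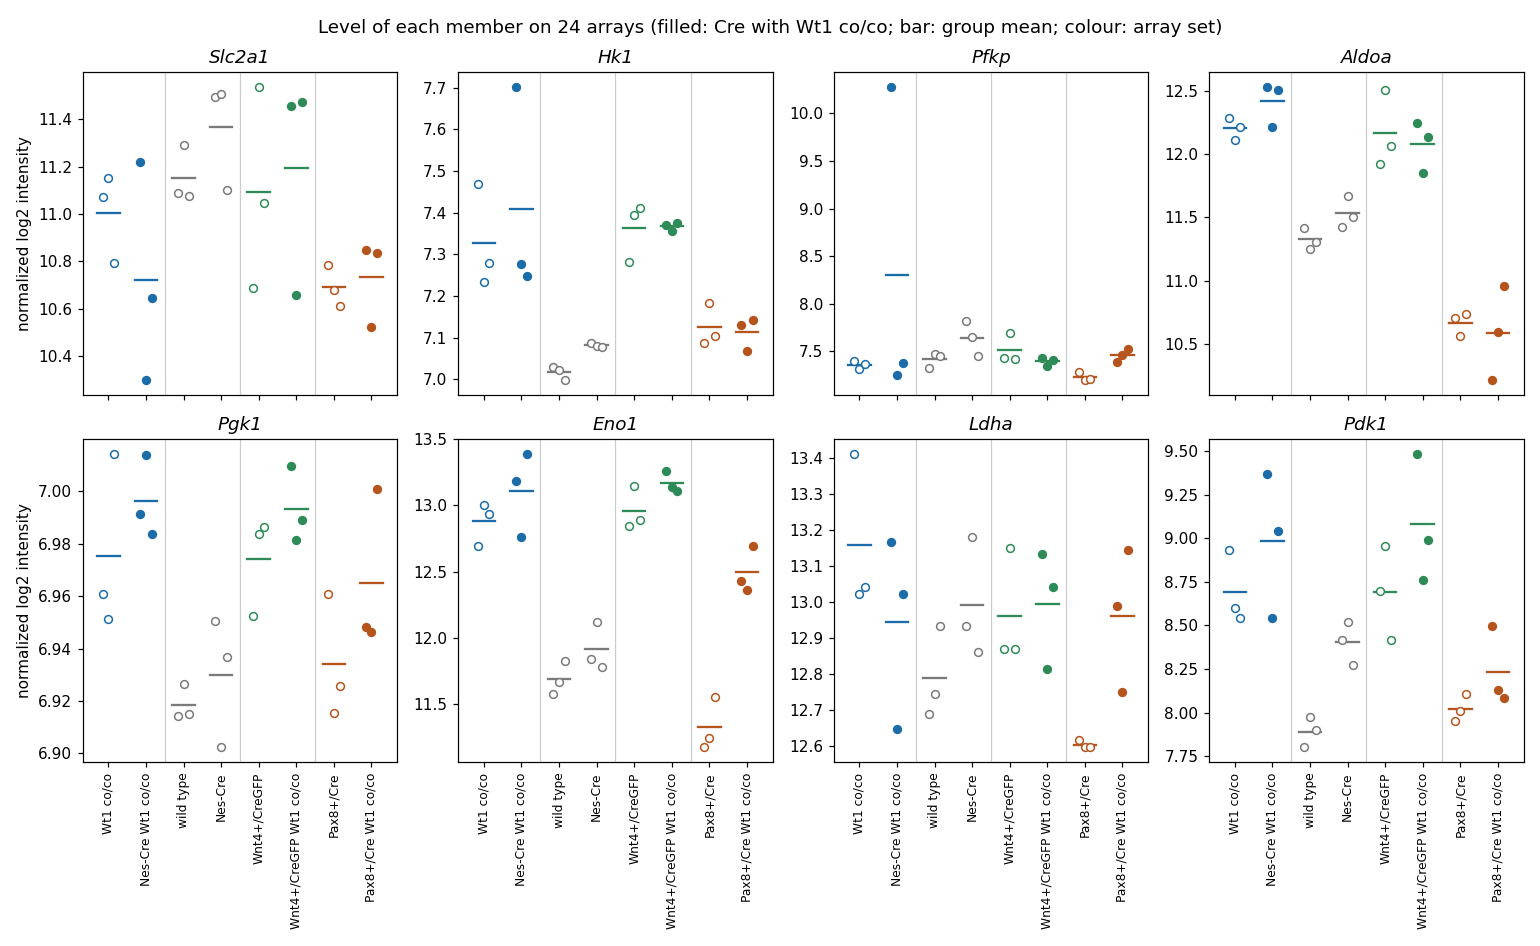
Normalized log2 intensity (vertical axis, a separate scale for each panel) of the 8 members on each of 24 arrays, by group (horizontal axis); points are arrays, filled for kidneys with Cre and *Wt1* co/co, bars are means of 3, and colours are the array sets. *Eno1* in the *Pax8*+/Cre mutant lies between 12.36 and 12.70, above its controls at 11.17 to 11.55, while *Aldoa* differs mostly by set.

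Against the controls of their own sets, *Eno1* was the only member that passed the test, and it did so in 1 of 3 mutants. *Eno1*, the enolase of most tissues, rose by 1.17 ± 0.15 on the log2 scale (SE, 3 arrays against 3) in the *Pax8*+/Cre mutant, a fold of 2.25 (limma adjusted p = 7.28e-05). In that comparison 1 of 8 members was higher, against 3.28% of all genes tested, and 0 of 8 were lower, against 3.68%. In the *Nes*-Cre mutant against *Wt1* co/co, 0 members were higher, against 11.1% of all genes, and 0 lower, against 13.1%. In the *Wnt4*+/CreGFP mutant, 0 were higher, against 8.67%, and 0 lower, against 8.91%. In neither of these comparisons did a member reach an unadjusted limma p under 0.05 (0 of 8 in each), and in the *Pax8*+/Cre comparison 2 did, *Eno1* and *Ldha*. A transcript level in whole kidney does not tell fewer cells of a type from less RNA per cell.

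**Figure D2:**
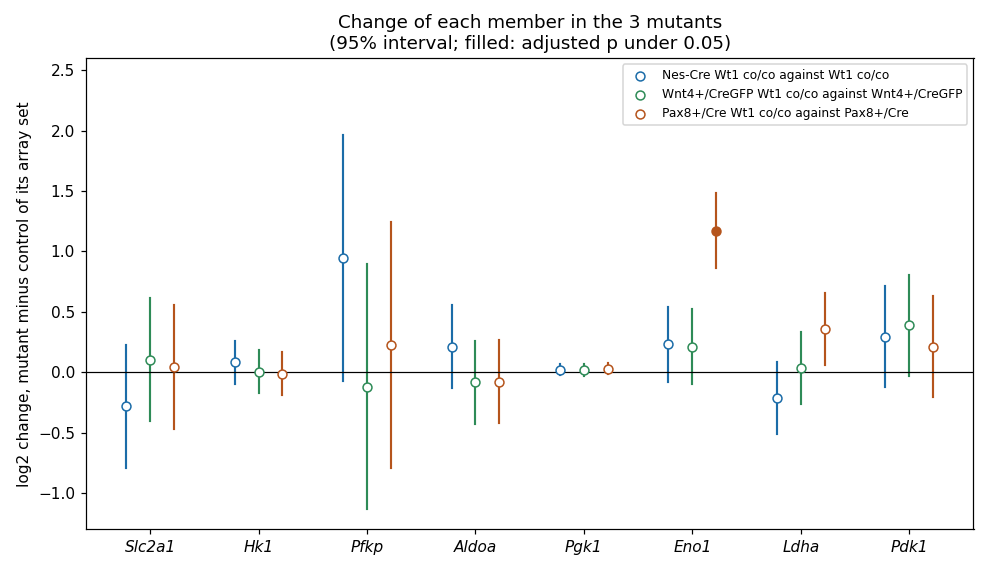
Log2 change of each member (horizontal axis) in the 3 mutants against the control of the same array set (vertical axis), with the 95% interval of the fit as a line; filled points passed an adjusted p of 0.05. The only filled point is *Eno1* in the *Pax8*+/Cre mutant at 1.17, and the widest intervals are those of *Pfkp*.

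The arrays of mutant and control were apart, without overlap, for 3 of 8 members in the *Pax8*+/Cre comparison (*Pfkp*, *Eno1* and *Ldha*), against 32.7% of all genes. They were so for 0 of 8 in the *Nes*-Cre comparison, against 33.9% of all genes, and for 0 of 8 in the *Wnt4*+/CreGFP comparison, against 44.1%. The median change of the 8 members was 0.15, 0.03 and 0.13 (log2) in the 3 mutants, beside 0.0013, 0.02 and 0.01 for all genes tested. With *Nes*-Cre *Wt1* co/co replicate 1 left out of the fit, whose variance estimate all groups share, the members called in either direction were 0 in the *Nes*-Cre mutant, against 26.7% of all genes, 0 in the *Wnt4*+/CreGFP mutant, against 27.1%, and 1 in the *Pax8*+/Cre mutant (*Eno1*), against 13.5%.

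*Slc2a1* codes for GLUT1, the carrier that lets glucose into most fetal cells. Its normalized log2 level was 11.07, 11.15 and 10.79 in *Wt1* co/co kidneys, and the *Nes*-Cre mutant gave 11.22, 10.30 and 10.65. Replicate 1 of the mutant was its highest array and lay above all 3 controls, and the other mutant arrays lay below them. The change was -0.28 ± 0.24 (adjusted p = 0.422), with a 95% interval from -0.79 to 0.23, and -0.53 ± 0.24 without that array (adjusted p = 0.116). In set 3, *Wnt4*+/CreGFP kidneys gave 10.69, 11.54 and 11.05 and their mutants 11.46, 10.66 and 11.47, so that both groups spanned nearly the same range. In set 4 the controls lay at 10.61 to 10.78 and the mutants at 10.52 to 10.85. The intervals of these changes reached from -0.41 to 0.61 and from -0.47 to 0.55, and neither change passed (adjusted p = 0.847 and 0.980).

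*Hk1*, a hexokinase that phosphorylates glucose as it enters, was measured close to the background, with intensities of 97.1 to 351. Its group means lay between 7.02 (wild type) and 7.41 (*Nes*-Cre mutant). Its log2 change in the 3 mutants was 0.08 ± 0.08, 0.0041 ± 0.084 and -0.01 ± 0.08 (adjusted p = 0.512, 0.989 and 0.988). The highest *Hk1* value of all arrays, 7.70, was again that of *Nes*-Cre *Wt1* co/co replicate 1, against 7.28 and 7.25 in the other arrays of the group, and leaving it out turned the change to -0.07 ± 0.05 (adjusted p = 0.405).

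*Pfkp* codes for the platelet form of phosphofructokinase, which commits the sugar to glycolysis. It stood at 10.28 in *Nes*-Cre *Wt1* co/co replicate 1 and at 7.25 and 7.37 in the other mutant arrays, beside 7.39, 7.31 and 7.36 in *Wt1* co/co kidneys. A single array thus carried the change of 0.95 ± 0.48 (adjusted p = 0.162), and without it the change was -0.04 ± 0.09 (adjusted p = 0.777). The summed linear level of 15 striated muscle markers was 49659 on that array and 3156 and 3380 on the others of the group, and 1946 to 2642 on every array of the 7 other groups. In the same comparison 7 of 12 muscle markers tested rose and 0 fell, and 10 of the 15 were detected on all 3 mutant arrays. Macrophage markers were also high in the group, 6 of 8 tested passing as higher and 0 as lower. Of all genes, 11.1% were higher and 13.1% lower in this comparison. In set 4 all 3 mutant arrays (7.38, 7.46 and 7.52) lay above all 3 controls (7.28, 7.20 and 7.21), but the change of 0.23 ± 0.48 did not pass in the fit of all groups (adjusted p = 0.910), nor did 0.23 ± 0.08 in a fit that left out the *Nes*-Cre mutant's replicate 1 (adjusted p = 0.0763). When only the 6 arrays of that set were fitted, a change of 0.30 passed (adjusted p = 0.0407). The detection p of this row was 0.0276 to 0.119 on the *Pax8*+/Cre mutant arrays at intensities of 272 to 586, so its detection did not follow its brightness.

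*Aldoa* codes for the aldolase that splits the 6-carbon sugar, and it passed the threshold in no mutant. Its log2 change in the 3 mutants was 0.21 ± 0.16, -0.08 ± 0.16 and -0.08 ± 0.16 (adjusted p = 0.364, 0.809 and 0.907), with the widest bounds at -0.43 and 0.56. *Pgk1*, phosphoglycerate kinase, makes ATP in the lower part of the route. Its row was at the edge of detection, with 16 of 24 arrays under a detection p of 0.01, none of them in set 2, and with normalized values between 6.90 and 7.01 on all arrays. Its changes of 0.02 to 0.03 on the log2 scale (adjusted p = 0.510 to 0.629) were read at this floor, where a change is understated.

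*Eno1* converts phosphoglycerate to phosphoenolpyruvate. It stood at 12.43, 12.36 and 12.70 in the *Pax8*+/Cre mutant, whose controls gave 11.17, 11.24 and 11.55. The lowest mutant array lay well above the highest control. The same separation was seen before any normalization, with intensities of 13581, 7903 and 7906 against 3638, 3257 and 5196, although the 75th percentile of the mutant arrays (1035, 466 and 382) overlapped that of the controls (476, 413 and 587). In the authors' ratio values the mutants lay at 2.25 to 2.49 and the controls at 0.910 to 1.17. The 95% interval of the change ran from 0.86 to 1.48.

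In the other mutants the change of *Eno1* was smaller and did not pass. The *Nes*-Cre mutant stood at 13.18, 12.76 and 13.39 and *Wt1* co/co at 12.70, 13.00 and 12.93, a change of 0.23 ± 0.15 (adjusted p = 0.266). The *Wnt4*+/CreGFP mutant stood at 13.26, 13.14 and 13.11 and its control at 12.84, 13.15 and 12.89, a change of 0.21 ± 0.15 (adjusted p = 0.379). The point estimate was above 0 in all 3 mutants, and the arrays of mutant and control overlapped in these 2. The difference between the *Nes*-Cre and the *Pax8*+/Cre change was itself tested and came to -0.94 ± 0.21 (adjusted p = 0.0207), but missed the threshold without *Pax8*+/Cre replicate 1 (-0.86, adjusted p = 0.0617) or replicate 2 (-0.90, adjusted p = 0.0525). *Eno1* was the 1 member of 8 called in that test, against 2.96% of all genes. The difference between the *Wnt4*+/CreGFP and the *Pax8*+/Cre change was of nearly the same size, -0.96 ± 0.21, and missed the threshold with all arrays (adjusted p = 0.0514), so that 0 of 8 members were called there, against 0.463% of all genes, with *Eno1* the 1 member at an unadjusted p under 0.05. It passed once the *Nes*-Cre mutant's replicate 1 was dropped from the fit (adjusted p = 0.0249) and under 7 of 33 alternatives in all. The 33 mostly left out 1 array each. Passes without a *Nes*-Cre mutant array or *Wt1* co/co replicate 1 left the difference at -0.96, as these groups are outside it. Between the *Nes*-Cre and the *Wnt4*+/CreGFP change, 0 of 8 members differed, against 2.61% of all genes (0 of 8 at an unadjusted p under 0.05). The *Nes*-Cre control carried the allele without Cre, and the other controls Cre without the allele. Differences from the *Nes*-Cre change are therefore not of the driver alone.

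Across the groups, whose genotype and array set cannot be told apart, *Pax8*+/Cre kidneys had the lowest normalized *Eno1* mean, 11.32 ± 0.20 (SD, n = 3), below wild type at 11.69 ± 0.12 and *Nes*-Cre at 11.91 ± 0.18, and their mutants at 12.49 ± 0.18 lay between these and the 4 groups of sets 1 and 3 at 12.88 to 13.17. Before normalization this order differed, with intensities of 3257 to 5196 in *Pax8*+/Cre and 2761 to 4065 in wild-type kidneys. Down the order of means from the *Wnt4*+/CreGFP mutant, the *Nes*-Cre mutant, *Wnt4*+/CreGFP, *Wt1* co/co and the mutant with *Pax8*+/Cre followed, each overlapping its neighbour, as *Nes*-Cre did with wild type. A row for EG433182, which RefSeq names *Eno1b*, a near-identical copy of *Eno1*, was dim, at 6.96 to 7.01 in the *Pax8*+/Cre mutants and 6.99 to 7.05 in their controls (change -0.05 ± 0.09, adjusted p = 0.889). Whether the *Eno1* probe also reads this copy or other near-identical sequences was not tested, as no probe sequences were at hand. Along with the rise of *Eno1*, the summed level of 14 proximal tubule markers was 8618 to 9229 in the mutants and 27808 to 29567 in the controls, with 9 of the 14 still detected in all 3 mutant arrays. The part of this in the *Eno1* result was not tested.

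*Ldha* codes for the lactate dehydrogenase subunit that favours lactate, and was among the brightest members, with intensities of 4327 to 17401. The *Pax8*+/Cre mutant stood at 12.99, 12.75 and 13.15 and its control at 12.62, 12.60 and 12.60. The groups did not overlap, and the change of 0.36 ± 0.14 did not pass after adjustment (adjusted p = 0.158, 95% interval 0.06 to 0.66). In the other mutants it was -0.21 ± 0.14 with *Nes*-Cre and 0.03 ± 0.14 with *Wnt4*+/CreGFP (adjusted p = 0.287 and 0.924). The *Nes*-Cre change minus the *Pax8*+/Cre change was -0.57 ± 0.20 (adjusted p = 0.123).

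*Pdk1* is a pyruvate dehydrogenase kinase, which turns pyruvate away from the mitochondria. Its change was above 0 in all 3 mutants and passed in none, at 0.29 ± 0.20, 0.39 ± 0.20 and 0.21 ± 0.20 (adjusted p = 0.296, 0.204 and 0.667). The *Wnt4*+/CreGFP mutant stood at 9.48, 8.76 and 8.99 and its controls at 8.70, 8.96 and 8.42, so the groups overlapped. With arrays weighted by their quality, this change was 0.47 and passed (adjusted p = 0.0359).

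For *Slc2a1*, *Hk1*, *Aldoa*, *Pgk1*, *Eno1* and *Pdk1*, more of the variance lay between array sets than between the groups of a set. Of the variance of *Aldoa* over 24 arrays, 92.6% lay between sets, 1.34% between the groups of a set and 6.05% within groups. The share between sets was 74.5% for *Eno1*, 71.4% for *Hk1*, 63.3% for *Pdk1*, 58.5% for *Pgk1*, 39.6% for *Slc2a1*, 22.4% for *Ldha* and 9.44% for *Pfkp*, against a median of 39.1% over all genes tested. *Aldoa* stood at 10.21 to 10.96 on the 6 arrays of set 4, at 11.25 to 11.67 in set 2, and at 11.85 to 12.54 in sets 1 and 3, so that no array of set 4 or set 2 overlapped the other sets. In the linear intensities before normalization these ranges overlapped (2114 to 4252 in set 4 and 2452 to 5220 in sets 1 and 3). *Aldoa* and *Eno1* lay above their means in sets 1 and 3 and below in sets 2 and 4 with each of 3 other normalizations, and the share of *Aldoa* between sets was then 90.3% to 92.5%.

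**Figure D3:**
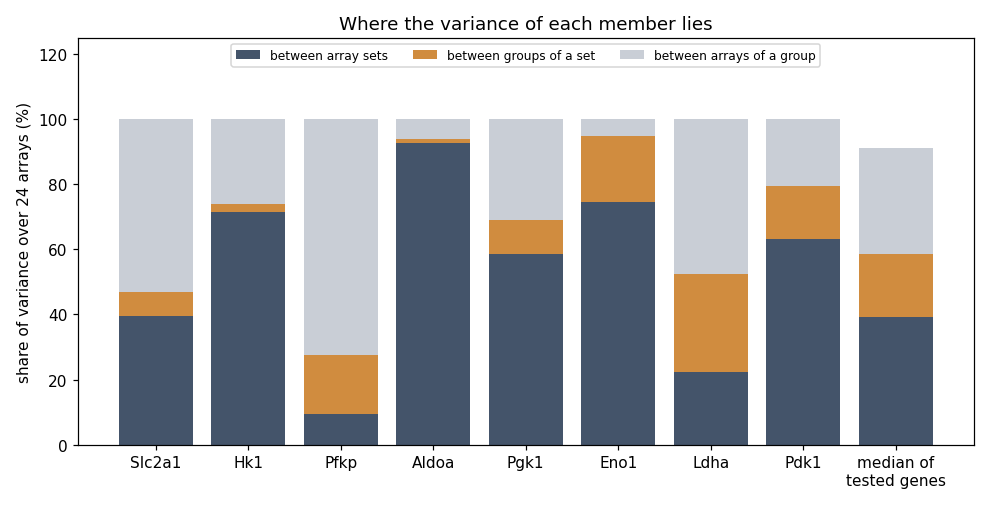
Share of the variance over 24 arrays (vertical axis, percent) between array sets, between the 2 groups of a set and between arrays of a group, for each member and as the median over all tested genes, whose parts need not sum to 100. The part between sets is 92.6% for *Aldoa* and 9.44% for *Pfkp*, and *Pfkp* has 72.4% of its variance within groups.

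A control from another set gave other calls. *Wt1* co/co against wild-type kidneys, in sets 1 and 2, gave 4 members higher (*Hk1*, *Aldoa*, *Eno1* and *Pdk1*), against 12.5% of all genes, and 0 lower, against 11.1%. *Aldoa* differed there by 0.88 ± 0.16 (adjusted p = 0.00111) and *Eno1* by 1.19 ± 0.15 (adjusted p = 4.57e-05), and the conditional allele and the set cannot be told apart. The study itself compared each mutant with kidneys that carried only its Cre, which for the *Nes*-Cre mutant are *Nes*-Cre kidneys. That comparison crosses the same sets and gave 5 members higher (*Hk1*, *Aldoa*, *Pgk1*, *Eno1* and *Pdk1*), against 18.7% of all genes, and 1 lower (*Slc2a1*), against 17.8%. With 75th percentile scaling, which moved the median of all genes by 0.18 in the second of these comparisons, *Hk1* was no longer called in the first, and *Pgk1* and *Pdk1* in the second. None of the 6 members was called against the control of the same set. With the sets cancelled, by subtracting the *Nes*-Cre effect in set 2 from the mutant effect in set 1, 0 members were higher, against 6.89% of all genes, and 0 lower, against 8.7% (0 of 8 at an unadjusted limma p under 0.05). The value of *Eno1* was then 0.0071 ± 0.21 and that of *Aldoa* 0.0067 ± 0.23.

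The *Nes*-Cre transgene alone, within set 2, left every member short of the threshold, with 0 higher, against 0.0289% of all genes, and 0 lower, against 0.00964%. The point estimate was above 0 for all 8 members, with a median of 0.21 against -0.0026 for all genes. *Pdk1* was the 1 member with an unadjusted limma p under 0.05, at 8.42, 8.52 and 8.27 in *Nes*-Cre kidneys and 7.80, 7.97 and 7.90 in wild type (0.51 ± 0.20, adjusted p = 0.545). The arrays of the groups did not overlap for *Pdk1*, *Hk1* and *Aldoa*, of which *Hk1* lies near the background. The share of all genes apart in this way was not counted for this comparison, so the lack of overlap is not read as a result.

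Among kidneys of the same genotype, *Slc2a1*, *Ldha* and *Pdk1* varied together. With each array taken as its deviation from the mean of its group, the correlation over 24 arrays was r = 0.717 for *Slc2a1* with *Ldha* (Spearman's rho = 0.627), 0.709 for *Slc2a1* with *Pdk1* (rho = 0.607) and 0.750 for *Ldha* with *Pdk1* (rho = 0.723). Leaving out *Nes*-Cre *Wt1* co/co replicate 1 gave 0.659, 0.621 and 0.700. The values were 0.654, 0.598 and 0.666 without the 2 arrays farthest from the median. Under 4 other normalizations the 3 correlations ranged from 0.461 to 0.802. They were uneven over the sets, from 0.381 in set 2 to 0.933 in set 3 for *Slc2a1* with *Ldha*, from 0.244 in set 4 to 0.878 in set 2 for *Slc2a1* with *Pdk1* and from 0.0086 in set 4 to 0.966 in set 1 for *Ldha* with *Pdk1*. The 3 genes were picked from these same data, and other pairs of members came close. *Aldoa* with *Ldha* had r = 0.625 (rho = 0.640), 0.613 without that *Nes*-Cre array and 0.635 to 0.902 under the other normalizations. *Slc2a1* with *Pfkp* had r = 0.575 (rho = 0.654). Deviations of the 3 arrays of a group sum to 0 and arrays share labelling and hybridisation, so these values are a description.

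**Figure D4:**
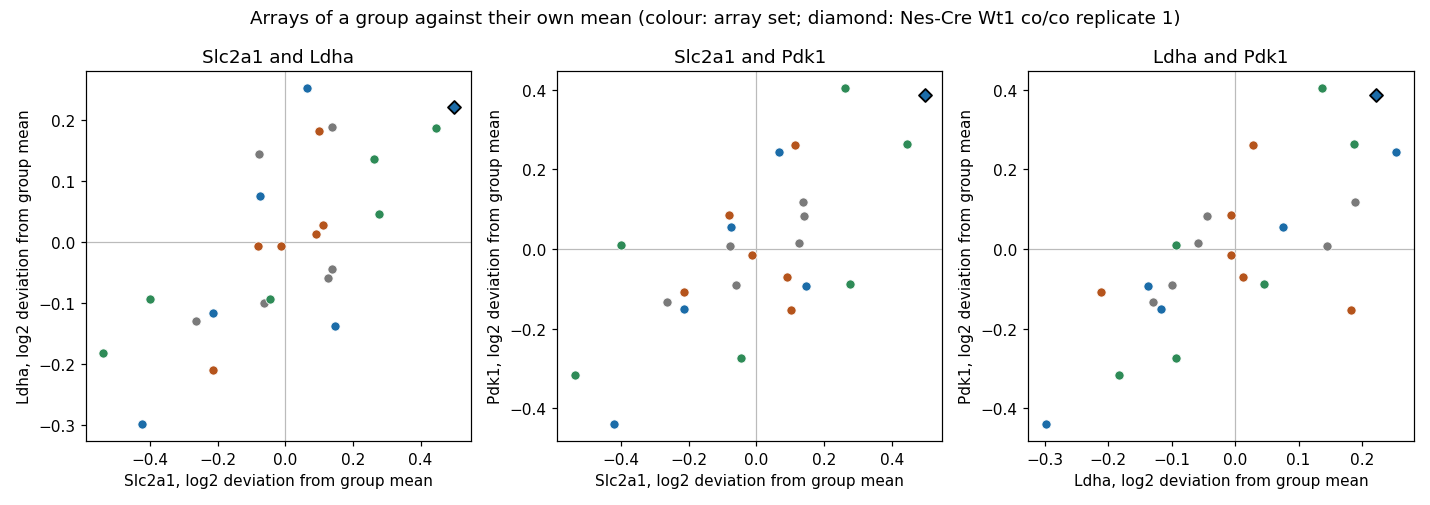
Deviation of each of 24 arrays from the mean of its own group (log2, both axes) for the pairs of *Slc2a1*, *Ldha* and *Pdk1*; colours are array sets and the diamond is *Nes*-Cre *Wt1* co/co replicate 1. Arrays high for 1 of these genes tend to be high for the other, with r = 0.717, 0.709 and 0.750.

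The 28 pairs of members had a median r of 0.427, and 13 of them were over 0.5, against a median of 0.0020 and 7.94% of pairs over 0.5 for all genes tested. Over the 23 arrays other than *Nes*-Cre *Wt1* co/co replicate 1, the median was 0.393 and 10 pairs were over 0.5, against 4.19% of all pairs. *Hk1* and *Pfkp* had the highest r, 0.848, and this rested on that array, since it was 0.144 without it. *Pgk1*, near the background, correlated with no member above 0.312. The deviations of *Aldoa* ran against the 75th percentile of the raw intensity of the array (r = -0.688), as did those of *Pgk1* (-0.525), while for *Slc2a1*, *Ldha* and *Pdk1* this r was -0.181, -0.075 and 0.105.

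Genes whose pattern was most like that of each member were read after the arrays of each set were centred on the set mean. They were *Edn1*, which codes for the vasoconstrictor endothelin, for *Slc2a1* (r = 0.816 over 24 arrays), *Wdr1* for *Hk1* (0.899), 1700113I22Rik for *Pfkp* (0.983), 8430408G22Rik for *Aldoa* (0.787), *Slc35a1* for *Pgk1* (0.726), *Sytl2* for *Eno1* (0.808), *Zbtb8* for *Ldha* (0.817) and *Dsp*, which codes for the desmosomal protein desmoplakin, for *Pdk1* (0.790). Over 23 arrays, with the *Nes*-Cre mutant's replicate 1 set aside, the r of *Pfkp* with its gene was 0.507 and that of *Hk1* 0.634, so that both rested in part on that array, and the other 6 lay between 0.727 and 0.825. Centred on group means instead, a reading chosen after the values were seen, *Slc2a1* was most like *Edn1* (0.884) and *Ankrd37* (0.857), *Ldha* most like *Ppp1r3c* (0.844), a glycogen-targeting subunit of protein phosphatase, and *Pdk1* most like *Pgm2* (0.851) and *Slc2a3* (0.805), another glucose carrier. *Aldoa* was most like *Pfkl* (0.854) and *Tpi1* (0.829), which code for glycolytic enzymes too. Of 15 genes of the hypoxia response tested, 5 had r over 0.5 with *Slc2a1*, 4 with *Ldha* and 4 with *Pdk1*, where 7.84%, 3.27% and 5.69% of all genes did. The other members had such an r with 5 (*Pfkp*, where 18.51% of all genes did), 4 (*Hk1*, 17.1%), 2 (*Eno1*, 0.897%), 1 (*Aldoa*, 1.98%) and 0 (*Pgk1*, 2.39%) of the 15, so it was not particular to these 3. *P4ha1*, a collagen prolyl hydroxylase subunit, was over 0.5 with all 3 (0.679, 0.527 and 0.656), as was *Ankrd37* (0.857, 0.583 and 0.598). *Egln1* was too (0.557, 0.516 and 0.632), but gave 0.299, 0.395 and 0.4996 without the *Nes*-Cre mutant's replicate 1. *P4ha1* and *Ankrd37* stayed over 0.5 without that array, which the counts of hypoxia genes given here keep.

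Among the other genes of glycolysis, forms of liver, muscle and neurons changed. Of 22 listed, 20 had a row and 16 were tested, of which 4 were higher and 2 lower in the *Nes*-Cre mutant, 2 and 2 in the *Wnt4*+/CreGFP mutant and 1 and 2 in the *Pax8*+/Cre mutant, with medians of 0.06, -0.02 and 0.02. Of all genes, 11.1% were higher and 13.1% lower in the first of these comparisons, 8.67% and 8.91% in the second and 3.28% and 3.68% in the last. The counts on the list are small and are not read as a result on it. *Pgam2*, the phosphoglycerate mutase of muscle, fell in all 3 mutants, with log2 changes of -0.98, -1.49 and -1.18 (adjusted p = 0.00792, 0.000406 and 0.00652). *Eno2*, the enolase of neurons, rose by 0.35 with *Nes*-Cre and 0.34 with *Wnt4*+/CreGFP (adjusted p = 0.00473 and 0.00666), and *Hkdc1*, a hexokinase domain protein, by 0.25 with *Wnt4*+/CreGFP (adjusted p = 0.0117). *Pklr*, the pyruvate kinase of liver and red cells, rose by 0.07 with *Pax8*+/Cre (adjusted p = 0.0362). Its means there were 6.98 and 6.91, at the same floor as *Pgk1*. *Eno3*, the enolase of muscle, rose by 2.06 with *Nes*-Cre (adjusted p = 0.00512), beside the high muscle markers of replicate 1, as did *Pfkl* and *Pfkm*, the phosphofructokinases of liver and muscle, by 0.47 and 0.39 (adjusted p = 0.0373 and 0.0272). The widely expressed *Tpi1* and *Gapdh* passed in no mutant (adjusted p = 0.0664 to 0.989), with log2 values of 0.06, 0.10 and 0.06 for the first and -0.15, -0.18 and -0.0085 for the second. None of the 2 tested regulators that make or remove fructose bisphosphate as a signal (the phosphofructokinase-2 family) was called in any mutant.

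Enzymes of glucose synthesis fell in all 3 mutants, and carriers of glucose reabsorption in the *Nes*-Cre and *Wnt4*+/CreGFP mutants. Of all genes, 11.1% were higher and 13.1% lower with *Nes*-Cre, 8.67% and 8.91% with *Wnt4*+/CreGFP, and 3.28% and 3.68% with *Pax8*+/Cre. Of 10 other glucose and lactate carriers tested, 0 were higher and 3 lower in the *Nes*-Cre mutant, 1 and 3 in the *Wnt4*+/CreGFP mutant and 0 and 0 in the *Pax8*+/Cre mutant. *Slc2a2* (GLUT2), *Slc5a1* and *Slc5a2*, the carriers by which the tubule takes glucose back, were the 3 that fell with *Nes*-Cre and with *Wnt4*+/CreGFP, *Slc2a2* with log2 changes of -0.52 and -0.63 (adjusted p = 0.000473 and 8.60e-05). *Slc2a3* rose by 0.46 with *Wnt4*+/CreGFP (adjusted p = 0.00509). Of 4 gluconeogenesis enzymes tested, 4, 4 and 3 fell in the 3 mutants and 0 rose. *Fbp1*, which reverses the phosphofructokinase step, fell with log2 changes of -2.64, -4.01 and -2.71 (adjusted p = 0.00231, 7.63e-05 and 0.00577), and *G6pc*, which frees glucose, with -1.38, -2.10 and -2.11 (adjusted p = 0.00161, 4.52e-05 and 9.62e-05). Proximal tubule markers fell beside them, 10, 10 and 5 of 12 tested. Of 10 stromal markers tested, 4, 4 and 1 were higher and 0 lower, with median log2 changes of 0.56, 0.43 and -0.04. The part of either list in these changes was not tested.

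Around *Pdk1*, the pyruvate dehydrogenase complex with its other kinases and phosphatases had 7 genes tested. Of these, 0 rose in any mutant, and 3, 4 and 1 fell, where 13.1%, 8.91% and 3.68% of all genes were lower. Proximal tubule markers fell in the same comparisons (10, 10 and 5 of 12 tested), and their part was not tested. *Pdha1*, a catalytic subunit, fell with *Nes*-Cre and *Wnt4*+/CreGFP, with log2 changes of -0.36 and -0.39 (adjusted p = 0.0120 and 0.00848), *Pdhb* with *Wnt4*+/CreGFP, at -0.49 (adjusted p = 0.00244), and *Dld* with *Pax8*+/Cre, at -0.25 (adjusted p = 0.0204). The kinase *Pdk2* fell with *Nes*-Cre and *Wnt4*+/CreGFP, at -0.25 and -0.19 (adjusted p = 0.00341 and 0.0265).

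The hypoxia response genes other than the members were called in small numbers. Of 15 tested, 2 rose and 1 fell with *Nes*-Cre, 2 and 1 with *Wnt4*+/CreGFP, and 0 and 2 with *Pax8*+/Cre, with medians of 0.0069, 0.05 and 0.03 (log2). The shares over all genes were 11.1% higher and 13.1% lower, 8.67% and 8.91%, and 3.28% and 3.68%. Counts this small are not read as a result on the list. *Ndrg1* fell in all 3, with log2 changes of -1.55, -1.51 and -0.97 (adjusted p = 0.000205, 0.000276 and 0.0195). *Ddit4*, an inhibitor of mTOR signalling, rose by 0.86 with *Nes*-Cre and 0.60 with *Wnt4*+/CreGFP (adjusted p = 0.00130 and 0.0195), and *Vegfa*, the endothelial growth factor, fell by 0.66 with *Pax8*+/Cre (adjusted p = 0.0380). Podocyte markers fell beside them, 3 of 4 tested in each mutant, with a summed level of 6 genes of 744 to 771 in the *Pax8*+/Cre mutant and 1807 to 1918 in its controls, and 1 and 3 of the 6 detected on all arrays of these groups. Proximal tubule markers fell too, as given above, and the part of either in these changes was not tested.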

How the data were processed

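Total RNA of 24 E18.5 mouse kidneys was amplified, biotin-labelled and hybridised by the authors to MouseRef-8 v2 BeadChips. The intensities, as deposited, are linear bead signals with 1 value per gene symbol, without background subtraction or normalization. No source used here gives how probes were combined, the scanner software or the probe build. A detection p-value per gene and array was deposited beside them. The authors made the ratio values in GeneSpring as linear ratios to the median of 3 control arrays, and they were used for the array sets and as an alternative, with the numbers of replicates 1 and 3 exchanged against the intensities in all 8 groups.

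In R 4.3.3 with limma 3.58.1, neqc used the detection p-values for the background correction (offset 16), normalized by quantiles and took log2. All 24 arrays entered 1 model of group means (16 residual and 1.32 prior degrees of freedom), p-values were adjusted by Benjamini and Hochberg over 10371 genes and calls made at 0.05. Every adjusted p is from limma. The fit was tested on simulated data. Figures used Python 3.11.15 and matplotlib 3.10.9.

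The members and gene lists were chosen with earlier results of these data known. Named genes were all members, up to 4 called genes with the largest changes per list of energy metabolism and comparison, of which the text uses a part, and the gene most like each member. *Gapdh*, *Tpi1*, *Pfkm*, EG433182 and the genes most like a member by group means were named after their values were seen. A result on another listed gene is not reported here. Replicates are separate kidney samples by their labels, and nothing says that they came from separate embryos or litters, so p-values measure only the spread between these samples. The number of arrays, 3 per group, limits the precision: the median SE of a log2 change was 0.0800 over all genes tested. For *Slc2a1*, *Aldoa*, *Eno1*, *Ldha* and *Pdk1* the SE was larger, 0.14 to 0.24, and for *Pfkp* 0.48. For *Hk1* and *Pgk1*, near the background, it was 0.084 and 0.022.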

Additional observations from a re-analysis of the deposited data

Results flagged for a closer look

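The difference between the *Eno1* change in the *Nes*-Cre mutant (0.23 on the log2 scale) and in the *Pax8*+/Cre mutant (1.17) was -0.94 ± 0.21 (limma adjusted p = 0.0207), which marked it for a closer look because the changes in 2 mutants differed by a direct test. The first change also holds the presence of Cre, and the second that of the conditional allele, so the driver cannot be told apart from these. Between *Wt1* co/co and wild-type kidneys, which differ in allele and set, *Eno1* differed by 1.19 ± 0.15. The part of the allele was not tested. The adjusted p over its 33 alternatives ranged from 0.00983 to 0.141, and 29 of them passed. Most alternatives left out 1 array, often of a group outside this difference, which could hardly move its value.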

How the results depend on the processing

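The *Eno1* call in the *Pax8*+/Cre mutant passed under all 33 alternatives that kept the control of its own set, at 1.05 to 1.29 on the log2 scale (adjusted p = 1.23e-06 to 0.00977). Most of the 33 left out 1 array, and where this array was of another group the change could hardly move. Without 1 of its own 6 arrays the change was 1.07 to 1.29 (adjusted p = 0.000129 to 0.000812). With the replicate number as a replicate block it was 1.17 (adjusted p = 0.00014). The block changed no count of members. Same-numbered arrays of mutant and control correlated at -0.258 to 0.098, so the numbers were not taken as pairs, although in the *Nes*-Cre comparison each array correlated best with its own number. Members higher in the *Nes*-Cre mutant numbered 0, but 3 with 75th percentile scaling (*Hk1*, *Pfkp* and *Pgk1*, where the median of all genes shifted by 0.22) and 5, with 1 lower, with *Nes*-Cre as the control. Leaving out 1 array gave 0 to 2 there (2 without *Nes*-Cre *Wt1* co/co replicate 2, *Pfkp* at 1.48 and *Eno1* at 0.40, and 1 without replicate 3, *Pfkp* at 1.42, each resting on replicate 1 for *Pfkp*). In the *Wnt4*+/CreGFP mutant the count was 0, but 1 with array weights (*Pdk1*). In the *Pax8*+/Cre mutant it was 1, but 2 with only its 6 arrays fitted (*Pfkp*), and 0, with 1 lower (*Aldoa*), with *Wt1* co/co as the control, which crosses sets and turned the *Eno1* value to -0.38 (adjusted p = 0.0505). The *Eno1* difference between the *Nes*-Cre and *Pax8*+/Cre mutants lost the call with 75th percentile scaling (-0.71, adjusted p = 0.0782), when the fit held only the groups involved (adjusted p = 0.141), and without *Pax8*+/Cre replicate 1 or 2 (adjusted p = 0.0617 and 0.0525). The *Eno1* change with *Wnt4*+/CreGFP minus that with *Pax8*+/Cre, not called, passed under 7 of 33 alternatives (adjusted p = 0.00737 to 0.332 over all 33). The cause of these changes was not tested.

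Over all genes, 1156 were higher and 1355 lower in the *Nes*-Cre mutant, 899 and 924 in the *Wnt4*+/CreGFP mutant and 340 and 382 in the *Pax8*+/Cre mutant. In the same order these were 4755 and 1591, 156 and 578, and 176 and 323 with 75th percentile scaling, 255 and 2307 and, in the *Wnt4*+/CreGFP mutant, 110 and 1287 with the authors' ratio values, and 1719 and 1614, 1934 and 1479, and 2017 and 1400 with array weights. In the *Pax8*+/Cre mutant they were 174 and 304 when a detection p of 0.5 set the background, and 228 and 233 with detection in all 24 arrays. The settings for levels across sets, and the most similar genes without 1 array, were chosen after the data were seen. *Pgk1* and *Hk1* lie near the background, so a change in them is understated.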
